A study of Mus musculus with 22 samples.

Results

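The cytosolic ribosomal protein genes encode the protein parts of the ribosome that translates nuclear messages. They were taken as the protein-coding genes of mm10 whose symbol is Rpl or Rps followed by a digit, with Rplp0, Rplp1, Rplp2 and Rpsa, and without the Rps6k kinases. The rule found 91 of 21887 protein-coding genes, on 19 chromosomes. Of these, 43 encode proteins of the large subunit, 3 the stalk (Rplp0, Rplp1 and Rplp2) and 31 the small subunit with Rpsa. The symbol rule also took in 8 paralogs (Rpl3l, Rpl7l1, Rpl10l, Rpl22l1, Rpl32l, Rpl36al, Rpl39l and Rps27l), 5 genes with the symbols of retrogenes or pseudogenes (Rpl31-ps12, Rpl34-ps1, Rpl37rt, Rps23rg1 and Rps27rt), and Rps19bp1, which encodes a protein that binds Rps19 and is no ribosomal subunit.

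Peaks were mapped by ChIP-seq in regulatory T cells (Treg cells, the suppressive T cells defined by the transcription factor Foxp3) from mouse spleen and lymph nodes, all stimulated for 1 h with Cell Stimulation Cocktail. Cells with the genotype IkE5-deletion (IkE5 below) were set against wild-type (WT) cells, with 2 libraries per genotype for H3K27ac, Foxp3, p300 and NFAT1, and with 2 libraries of Ikaros in WT cells alone. The labels do not say how the deletion was made, in which cells it acts, how much Ikaros remains, or whether libraries came from separate animals, so differences between libraries of a group may be technical. The series title names Ikzf1, the gene of Ikaros, and the comparisons here concern where the factors sit on the ribosomal protein genes and whether that differs in IkE5 cells. Each deposited list gives peak positions with no score, so a gene either has or lacks a peak in a list, and read depth is unknown. A gene was counted as holding a peak when a peak overlapped its body or the 2 kb on either side.

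Ribosomal protein genes are among the most active genes of growing cells. In mammals many of their messages begin with a C followed by a run of pyrimidines, which lets the growth kinase mTOR set their translation, and their promoters are compact and often hold sites of Ets-family factors. Ikaros, a zinc finger factor of lymphocytes, and Foxp3 can recruit corepressors; p300 is an acetyltransferase that coactivates transcription; NFAT1 (Nfatc2) enters the nucleus on calcium signals; and H3K27ac marks active promoters and enhancers.

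The promoters of 6 small and large subunit genes show the sequences at which the differences below lie. All had an NFAT1 peak in both WT libraries, and at Rps12 alone of them the peak was also present in both IkE5 libraries. Each RefSeq window runs from 250 bases before to 50 bases after a gene start in GRCm38.p6 (the assembly of mm10) and is written 5′ to 3′ in the direction of transcription. Capitals mark exact matches, on either strand, to TGGAAA (the NFAT core), TGGGAA (an Ikaros core) and CCGGAAG (an Ets core), or a C at the first transcribed base followed by 4 pyrimidines.
Rps12, chr10:23787160-23787459, minus strand: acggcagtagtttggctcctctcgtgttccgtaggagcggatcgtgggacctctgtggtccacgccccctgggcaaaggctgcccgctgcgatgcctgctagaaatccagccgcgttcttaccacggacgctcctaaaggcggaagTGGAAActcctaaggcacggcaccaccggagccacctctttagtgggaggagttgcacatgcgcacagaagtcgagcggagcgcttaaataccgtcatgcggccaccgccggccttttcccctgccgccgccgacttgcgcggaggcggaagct
Rpsa, chr9:120127516-120127815, plus strand: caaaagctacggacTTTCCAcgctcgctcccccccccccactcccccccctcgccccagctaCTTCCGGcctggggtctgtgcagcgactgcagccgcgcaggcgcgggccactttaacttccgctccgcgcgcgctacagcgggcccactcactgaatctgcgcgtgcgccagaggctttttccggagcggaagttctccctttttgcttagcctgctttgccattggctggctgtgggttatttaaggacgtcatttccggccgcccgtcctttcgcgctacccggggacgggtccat
Rps16, chr7:28350439-28350738, plus strand: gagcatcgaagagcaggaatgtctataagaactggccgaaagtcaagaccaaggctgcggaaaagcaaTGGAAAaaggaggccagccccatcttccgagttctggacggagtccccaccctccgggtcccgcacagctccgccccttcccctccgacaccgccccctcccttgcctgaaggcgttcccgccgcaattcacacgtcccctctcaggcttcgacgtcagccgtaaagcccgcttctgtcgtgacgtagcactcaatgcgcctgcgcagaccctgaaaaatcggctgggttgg
Rps26, chr10:128626457-128626756, minus strand: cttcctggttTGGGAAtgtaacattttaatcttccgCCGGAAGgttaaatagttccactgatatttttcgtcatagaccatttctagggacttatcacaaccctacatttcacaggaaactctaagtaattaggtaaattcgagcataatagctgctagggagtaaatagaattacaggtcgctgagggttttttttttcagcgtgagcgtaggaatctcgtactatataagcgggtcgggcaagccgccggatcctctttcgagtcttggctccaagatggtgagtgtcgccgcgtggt
Rps27, chr3:90213599-90213898, minus strand: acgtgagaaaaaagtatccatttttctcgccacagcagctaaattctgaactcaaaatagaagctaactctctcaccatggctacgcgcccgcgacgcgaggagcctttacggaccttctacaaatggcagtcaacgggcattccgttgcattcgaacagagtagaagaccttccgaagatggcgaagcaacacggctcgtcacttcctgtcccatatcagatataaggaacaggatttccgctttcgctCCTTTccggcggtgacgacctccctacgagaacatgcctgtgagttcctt
Rpl10, chrX:74270566-74270865, plus strand: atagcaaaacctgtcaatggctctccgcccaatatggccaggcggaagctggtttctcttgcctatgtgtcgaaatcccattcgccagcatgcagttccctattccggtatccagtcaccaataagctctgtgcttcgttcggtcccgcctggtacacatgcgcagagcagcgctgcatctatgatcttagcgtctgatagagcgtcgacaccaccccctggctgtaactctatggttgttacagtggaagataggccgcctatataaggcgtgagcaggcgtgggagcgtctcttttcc
The NFAT core was found in Rps12 (from base -104), Rps16 (from base -182) and Rpsa (from base -236, on the other strand), counting from 0 at the gene start, and in no window of Rps26, Rps27 or Rpl10. The Ets core was found in Rpsa and Rps26, the Ikaros core in Rps26, and the pyrimidine start in Rps27.

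Of the 91 genes, 70 had an entry in the RefSeq promoter table, and motif shares were taken over these. The pyrimidine start was present in 15 of the 70 (21.4%), against 2.67% of the 17492 genes with an entry. The Ets core was present in 26 (37.1%), against 12.9% of all genes and 21.2% of those with an H3K27ac peak in all 4 libraries. The NFAT core was present in 9 (12.9%) against 19.4% of the genes with H3K27ac in all 4 libraries, and the Ikaros core in 18 (25.7%) against 27.4% of all genes. The forkhead core TGTTTAC was present in 1 (1.43%, against 3.45% of all genes and 3.16% of the acetylated genes), and the Myc E box CACGTG in 6 (8.57%, against 8.91% and 11.8%). For 3 motifs the ribosomal protein genes lay between both backgrounds. The YY1 core GATGGCG was present in 5 (7.14%, against 4.95% of all genes and 7.68% of the acetylated genes), the Sp and Klf box GGGCGG in 41 (58.6%, against 49.2% and 67.8%), and TATAAA in 9 (12.9%, against 14.8% and 8.64%). These letters were searched on both strands, apart from the pyrimidine start, which was read on the gene's strand alone.

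H3K27ac was present at the same 83 ribosomal protein genes in all 4 libraries and at none of the other 8 in any. The 83 included all 43 large subunit, 3 stalk and 31 small subunit genes, Rps19bp1 and 5 of the 8 paralogs. The 8 without the mark were Rpl10l and Rpl39l, paralogs known from mouse testis, Rpl32l, and the 5 genes with symbols of retrogenes or pseudogenes. Over all protein-coding genes, 58.4% and 56.9% had an H3K27ac peak in the IkE5 libraries and 59.7% and 56.0% in the WT libraries. The acetylated paralogs were Rpl7l1, which acts in ribosome assembly, Rpl22l1, Rps27l, Rpl36al and Rpl3l, the paralog of striated muscle. The window of Rpl3l also takes in Msrb1, and in all 47 of the 91 windows overlapped another protein-coding gene, so a peak there cannot be assigned to one of the genes.

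**Figure D1:**
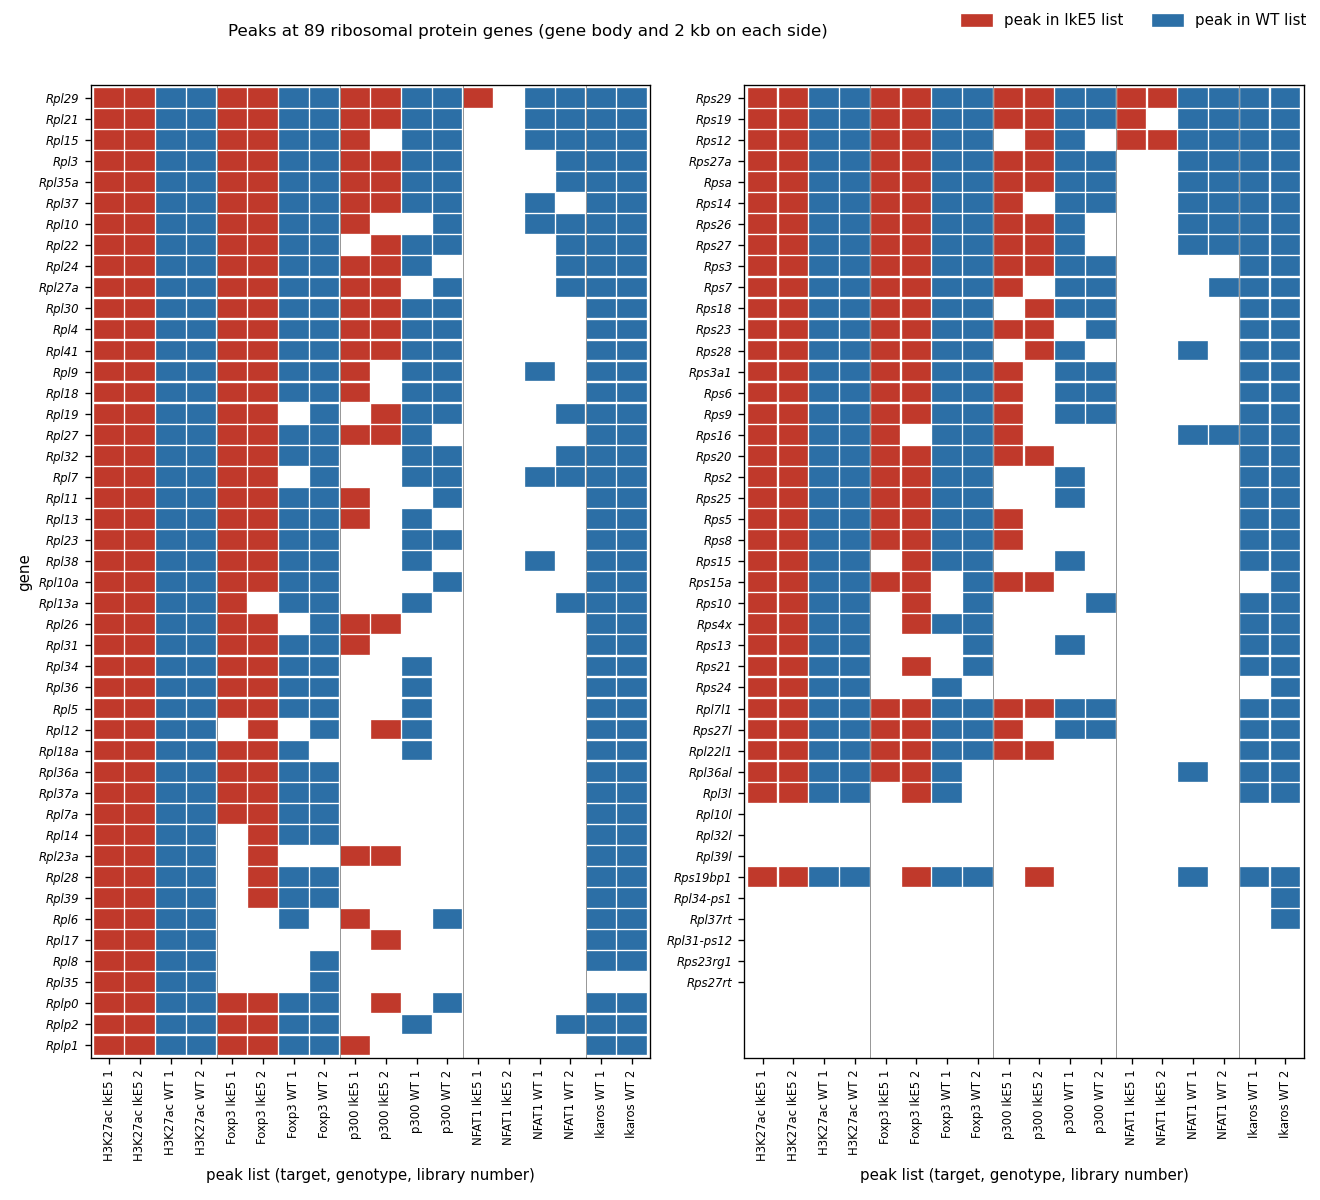
Peaks at 89 of the 91 genes (rows, grouped by kind of gene) in each of the 18 lists (columns). A filled cell means at least 1 peak over the gene body or 2 kb on either side, in red for IkE5 and blue for WT lists. The H3K27ac columns are filled for the same 81 of the genes drawn in all 4 libraries, and the NFAT1 columns hold 4 and 2 of them in IkE5 against 20 and 24 in WT.

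In WT cells Ikaros and Foxp3 sat on most of these genes. Ikaros had a peak at 80 and 83 of the 91 genes (87.9% and 91.2%), against 49.4% and 55.6% of all genes. Foxp3 had a peak at 66 and 74 genes in the IkE5 libraries and at 71 and 75 in the WT libraries. Among all genes the Foxp3 shares were 44.4% and 45.7% in IkE5 and 44.6% and 44.3% in WT. Among the 11647 genes with H3K27ac in all 4 libraries the shares were near those of the ribosomal protein genes, at 87.8% and 94.3% for Ikaros and at 78.4% and 80.3% (IkE5) and 79.7% and 78.8% (WT) for Foxp3. The 91 genes include 8 without the mark in any library, so these shares are not like for like. Ribosomal protein genes are also short, with a median length of 3.17 kb against 17.2 kb for all genes, so their windows are smaller.

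Promoter windows have the same length at every start, and a gene with several starts was counted when any of its windows held a peak. Over these windows a larger share of the ribosomal protein genes than of the genes with H3K27ac in all 4 libraries held Ikaros, Foxp3 and p300. Over gene windows the share of all 91 genes was not above that of the acetylated genes in every library for any of these factors. The 91 include 8 genes without the mark in any library, so the comparison over gene windows is not like for like. Ikaros lay over 57 and 60 of the 70 promoters (81.4% and 85.7%), against 59.9% and 69.8% of the genes with H3K27ac in all 4 libraries. Foxp3 lay over 45 and 54 in IkE5 and over 54 and 58 in WT. These are 64.3% and 77.1% in IkE5, where 47.6% and 54.8% of the acetylated genes had a Foxp3 peak, and 77.1% and 82.9% in WT, where 50.7% and 53.6% had one. The acetyltransferase p300 lay over 25 and 20 promoters in IkE5 (35.7% and 28.6%, against 24.4% and 18.3%) and over 34 and 27 in WT (48.6% and 38.6%, against 27.6% and 21.9%). The mark itself lay over 85.7% and 87.1% of the 70 promoters in IkE5 and 85.7% and 87.1% in WT, against 87.4% to 88.8% of the acetylated genes. The 70 include genes without the mark in any library, so these shares do not say whether the mark separates them from other acetylated genes. For Foxp3, IkE5 library 2 equalled WT library 1, so the genotypes were not separate. For p300 the higher IkE5 share (35.7%) was below the lower WT share (38.6%). Over gene windows the genotypes overlapped, with p300 at 44 and 34 of the 91 genes in IkE5 (48.4% and 37.4%, against 49.4% and 38.3% of the acetylated genes) and at 50 and 37 in WT (54.9% and 40.7%, against 51.2% and 43.8%). With 2 libraries against 2 no 2-sided exact permutation p can be under 0.333, so none of these counts was tested.

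**Figure D2:**
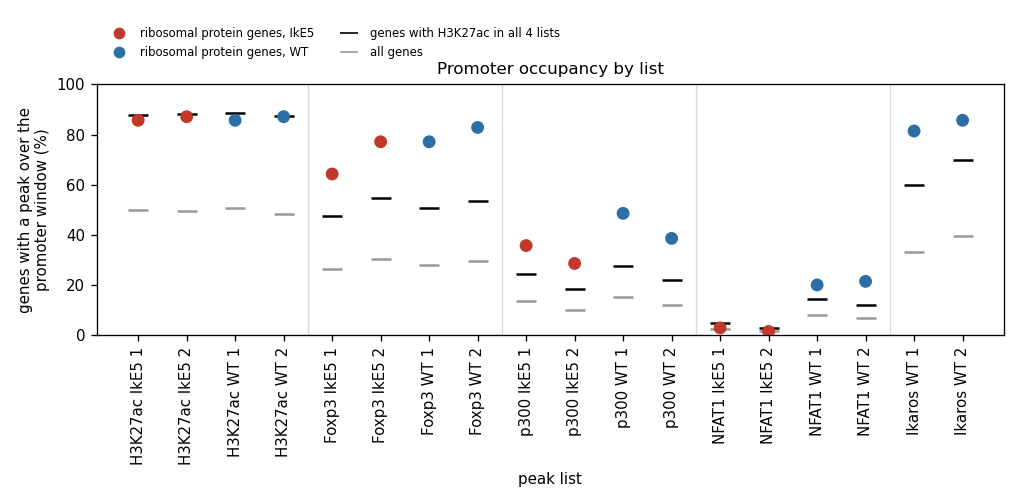
Percentage of genes with a peak over the RefSeq promoter window (y axis) in each of the 18 lists (x axis). Points are the 70 ribosomal protein genes with an entry (red IkE5, blue WT), black bars the genes with H3K27ac in all 4 libraries and grey bars all genes. The points lie above the black bars for Ikaros, Foxp3 and p300 in every list and for NFAT1 in the WT lists, and below them for H3K27ac and for NFAT1 in IkE5. The 70 genes include some without H3K27ac in any list, which the black bars leave out.

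The factor peaks were centred on the gene starts. For the genes with a promoter entry, the distance from a peak's centre to the nearest RefSeq start had a median size of 130 and 106 bp for Foxp3 in IkE5 and of 115 and 55.5 bp in WT. Within 500 bp of a start lay 82.1% and 91.7% of the Foxp3 peaks at these genes in IkE5 and 87.3% and 92.1% in WT. For p300 the shares were 78.8% and 82.1% in IkE5 and 89.7% and 93.1% in WT, and for Ikaros they were 82.9% and 87.0%. At all genes, 36.4% to 48.7% of Foxp3 peaks, 33.7% to 39.4% of p300 peaks and 41.6% to 42.5% of Ikaros peaks lay that near. Ribosomal protein genes are shorter (median 3.17 kb against 17.2 kb), and a smaller window by itself places peaks nearer a start. No background matched for gene length was taken. H3K27ac peaks were centred downstream, at a median of 661 and 466 bp into the gene in IkE5 and 732 and 393 bp in WT.

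**Figure D3:**
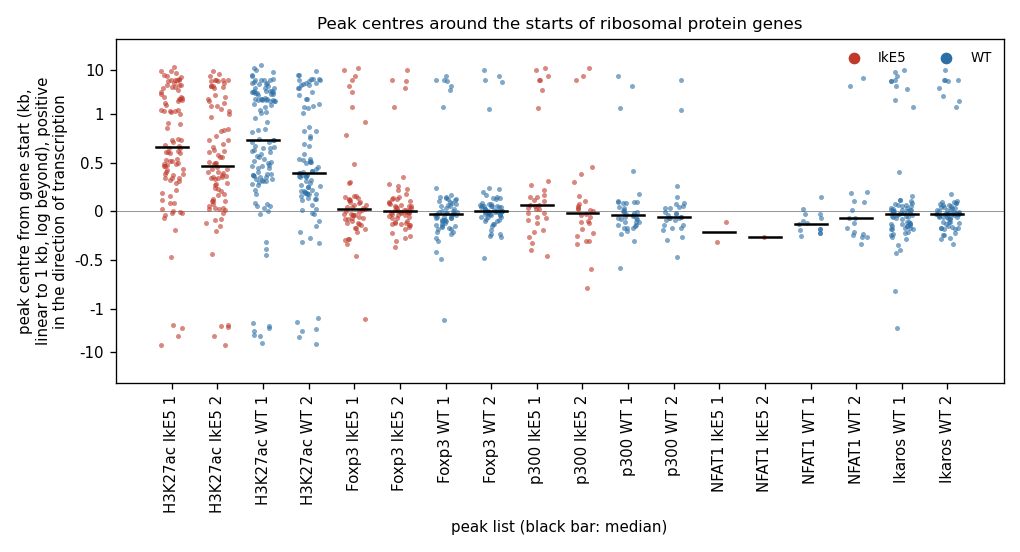
Distance of each peak's centre from the nearest RefSeq start (y axis, in kb, linear to 1 kb and logarithmic beyond) in each list (x axis), for peaks at ribosomal protein genes with a promoter entry. Points are peaks (red IkE5, blue WT) and black bars are medians. Factor peaks gather within 0.5 kb of the start, and H3K27ac peaks lie mostly downstream of it.

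The factors shared sites at these genes. Of 67 Foxp3 regions at ribosomal protein genes (peaks of both WT libraries, joined where they overlapped by at least 1 bp), 64 overlapped an Ikaros region found in both of its libraries (95.5%, against 87.2% of the Foxp3 regions at all genes). Of 83 Ikaros regions there, 64 overlapped Foxp3, or 77.1%, against 58.1% at all genes. All 29 p300 regions at these genes overlapped Ikaros (80.7% at all genes) and 26 overlapped Foxp3. When only promoter windows were counted, 95.9% of 49 Foxp3 regions at ribosomal protein genes overlapped Ikaros, against 93.1% at all genes, and 100% of 19 p300 regions did, against 96.1%. Of 56 Ikaros regions over these promoters 83.9% overlapped Foxp3, against 66.97% over the promoters of all genes.

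By targets present in both WT libraries, 32 genes had H3K27ac with Foxp3 and Ikaros, 19 had p300 as well, 6 had NFAT1 in place of p300, and 8 had all 5 targets. Those 8 were Rpl15, Rpl21, Rpl29, Rps14, Rps19, Rps27a, Rps29 and Rpsa. The share of genes with all 5 targets was 8.79%, against 10.0% of all genes. H3K27ac is among the 5, and both WT libraries had it at 91.2% of these genes against 55.4% of all genes. The share with all 5 among acetylated genes was not taken. Of the rest, 12 had H3K27ac and Ikaros alone, 2 had p300 without Foxp3, 8 had no target, and 4 had the mark and no factor in both libraries. Among these 4 were Rpl35, Rps15a and Rps24. Rpl35 was the only acetylated gene of the 83 without an Ikaros peak in either library, and its sole factor peak was of Foxp3 in WT library 2. At the other end, Rps29, a small zinc-binding protein of the small subunit, had a peak in all 18 lists, and Rpl29 and Rps19 in 17. The stalk genes, whose products recruit translation factors to the ribosome, had Foxp3 in all 4 libraries and Ikaros in both, and p300 in at most 1 library of a genotype.

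NFAT1 sat on fewer of these genes in IkE5 than in WT cells. It had a peak at 4 and 2 of the 91 genes in IkE5 and at 21 and 26 in WT. In shares these are 4.40% and 2.20% in IkE5 against 23.1% and 28.6% in WT, where all genes had 10.5% and 7.43% in IkE5 and 18.4% and 16.8% in WT. Among the genes with H3K27ac in all 4 libraries, 18.97% and 13.54% had one in IkE5 and 33.8% and 31.0% in WT. These are above the shares of the 91 genes in each library, but the 91 include 8 without the mark in any library. The gap in WT library 2 was the smallest and does not place the acetylated ribosomal protein genes below other acetylated genes. Over the 70 promoters NFAT1 lay at 2 and 1 in IkE5 (2.86% and 1.43%, against 4.73% and 2.65% of the acetylated genes) and at 14 and 15 in WT (20% and 21.4%, against 14.4% and 12.2%). Both IkE5 libraries were below both WT libraries, and no ribosomal protein gene had an NFAT1 peak in IkE5 without one in WT. Of the 32 genes with a peak in either WT library, 4 had one in IkE5, namely Rps12 and Rps29 in both libraries, and Rps19 and Rpl29 in library 1. The IkE5 lists were shorter as a whole (4908 and 3435 peaks, against 7825 and 6850 in WT), and reduced binding cannot be told apart from a shallower or less enriched IkE5 library. Relative to list length, peaks at ribosomal protein genes made up 0.815 and 0.582 per 1000 peaks in IkE5 and 2.68 and 3.80 per 1000 in WT. Of NFAT1 regions of both WT libraries, 56.7% over the promoters of all genes had no IkE5 peak, against 40.6% in the genome. The rate per 1000 peaks does not account for that difference.

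For each target, peaks that overlapped by at least 1 bp in any of its 4 lists were merged. An IkE5 only region held peaks of both IkE5 libraries and of neither WT library, and a WT only region the opposite. For NFAT1, WT only regions occurred at 11 of the 91 genes (12.1%), compared with 7.01% of all genes and 13.0% of the genes with H3K27ac in all 4 libraries, and 0 had an IkE5 only region, against 1.02% of all genes. The share of genes with a WT only region was thus near that of other acetylated genes. Among genes that had NFAT1 in both WT libraries, 11 of the 15 ribosomal protein genes (73.3%) had no peak in either IkE5 library, against 38.3% of 2940 genes. Counted over promoters, where 8 NFAT1 regions of both WT libraries lay over these genes, 6 were WT only, against 56.7% of the 766 regions over promoters of all genes. These gene counts were not tested. Without WT library 1 the count of genes with a WT only region was 22 (10.7% of all genes), and without WT library 2 it was 17 (12.7%).

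Among the 11 genes were Rps14, Rps16, Rps26, Rps27, Rps27a and Rpsa of the small subunit and Rpl7, Rpl10, Rpl15 and Rpl21 of the large subunit. Rps27a encodes a fusion of ubiquitin with a ribosomal protein, and Rpsa encodes a small subunit protein also known as the laminin receptor. Of the 11, the 6 with a promoter entry had the region centred upstream of the start. At Rpsa (chr9:120127766-120132369) the WT only region was chr9:120127251-120127898, centred 192 bp before the start. At Rps16 (chr7:28350689-28352698) it was chr7:28350304-28350817, centred 129 bp before the start, and at Rps26 (chr10:128624529-128626506) it was chr10:128626468-128627012, centred 234 bp before the start. At Rps27 it was chr3:90213466-90214080 and at Rpl10 it was chrX:74270346-74270889. All 11 overlapped an Ikaros region of both libraries, against 76.3% of the NFAT1 WT only regions of the genome. Over promoters the shares were closer, and 8 of 8 NFAT1 regions of both WT libraries at these genes overlapped Ikaros, against 91.5% of 757 at all genes. Among the 44 genes whose window held no other protein-coding gene, 4 had such a region, namely Rpl21, Rps14, Rps16 and Rps26.

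NFAT1 stayed at Rps12 (chr10:23785183-23787383), a small subunit gene, where the region chr10:23787074-23787725 had a peak in all 4 libraries, and beside Rps29 (chr12:69157722-69159186), where chr12:69159457-69160032 did. The Rps12 region overlapped Ikaros and the Rps29 region did not overlap an Ikaros region of both libraries. At the genes with a WT only NFAT1 region, Foxp3 peaks were mostly present in both genotypes. Rps14, Rps26, Rps27, Rps27a, Rpsa, Rpl10, Rpl15 and Rpl21 had a Foxp3 region with a peak in all 4 libraries, and Rps27a, Rpsa and Rpl21 had p300 in all 4 as well. All 11 genes kept H3K27ac in all 4.

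**Figure D4:**
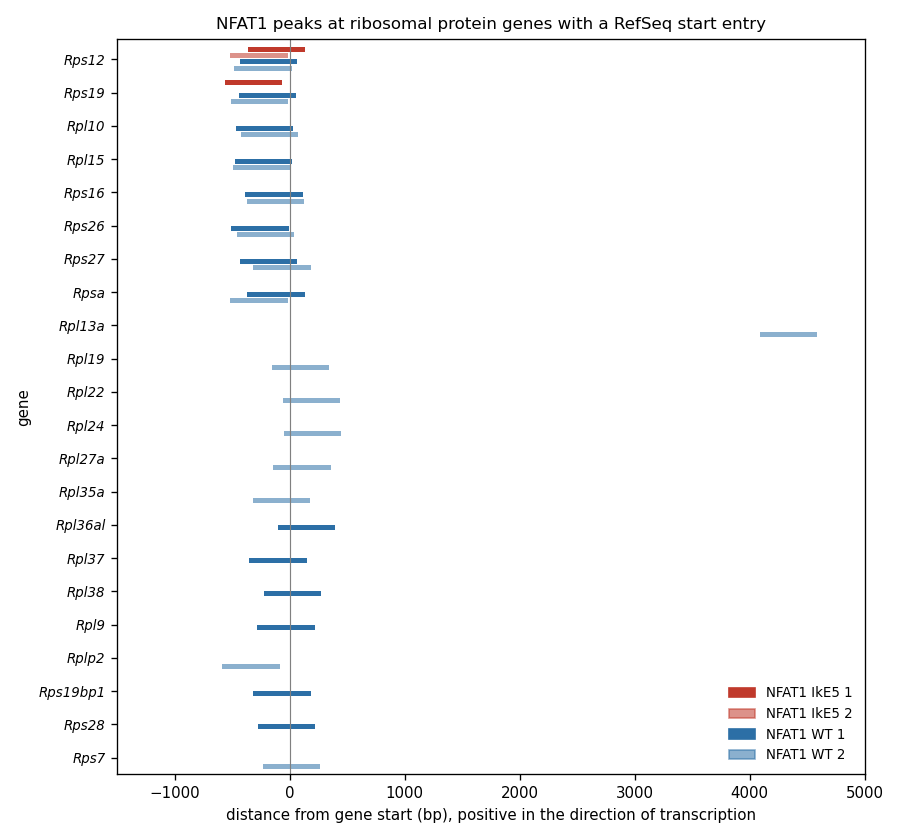
NFAT1 peaks around the RefSeq start (x axis, in bp, positive in the direction of transcription; where a gene has several starts, the first listed) of the 22 ribosomal protein genes with a promoter entry and an NFAT1 peak in at least 1 list. Bars are single peaks, red for IkE5 and blue for WT, dark for library 1 and pale for library 2. Red bars stand at 2 of the 22 genes (Rps12 and Rps19), and 8 genes have a peak in both WT lists.

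Other translation genes also had fewer NFAT1 peaks in the IkE5 lists, as all genes did (10.5% and 7.43% in IkE5 against 18.4% and 16.8% in WT), and these lists were not tested against all genes. Genes of mitochondrial ribosomal proteins had a peak at 8 and 5 of 83 in IkE5 and at 25 and 21 in WT. Ribosome biogenesis genes had one at 12 and 5 of 58 in IkE5 and at 26 and 20 in WT, translation initiation factors at 4 and 2 of 35 in IkE5 and at 12 and 9 in WT, and elongation factors and ribosome-associated proteins at 1 and 1 of 15 in IkE5 and at 8 and 6 in WT. For genes that control ribosome synthesis through mTOR and Myc the counts overlapped, at 6 and 2 of 21 in IkE5 and 6 and 4 in WT. Ikaros had a peak at 80 and 82 of the 83 mitochondrial ribosomal protein genes and at 57 and 58 of the 58 biogenesis genes.

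The length covered by H3K27ac peaks at ribosomal protein genes did not differ detectably between the genotypes. The lists hold no signal height, so the amount of the mark within a peak was not measured. The length covered by the mark in each window was compared by limma on log2(covered length, scaled to the library's total, + 1000 bp), over the 11362 genes that averaged 1000 bp or more. Of the 83 ribosomal protein genes in the fit 0 passed an adjusted p of 0.05 (limma, Benjamini-Hochberg over all genes), against 1.88% of all genes (1.17% higher and 0.713% lower in IkE5), and 2 had an unadjusted p under 0.05 (2.41%, against 12.4% of all genes). The log2 differences of IkE5 over WT ran from -0.51 to 0.50, with a median of -0.04 (all genes -0.02) and a median size of 0.10 (all genes 0.16), and 35 were above and 48 below 0. The standard errors ran from 0.19 to 0.30, and with 4 libraries even the differences near 0.5 on the log2 scale did not pass. Before scaling to the library's total, the median covered length was 2.73 kb in IkE5 and 2.65 kb in WT. This was 38.6% (IkE5) and 37.3% (WT) of the window, against 10.5% in both genotypes at all genes with the mark in all 4 libraries. These unscaled medians are not the quantity that was fitted. Ribosomal protein genes are shorter (median 3.17 kb against 17.2 kb for all genes), so a peak of a given width fills more of their window. No background matched for gene length was taken, and the shares of the window do not show more of the mark at these genes.

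The 4 largest differences in each direction follow. Lengths are given before scaling to the library's total, and log2 differences are from the scaled lengths. Rps9, of the small subunit, had 4.23 and 3.61 kb of H3K27ac in IkE5 and 3.18 and 1.83 kb in WT, a log2 difference of 0.50 ± 0.20 (SE, limma adjusted p = 0.301). Rpl3, a core protein of the large subunit, had 4.32 and 3.71 kb in IkE5 and 3.02 and 2.28 kb in WT (0.44 ± 0.20, limma adjusted p = 0.393). For both genes the IkE5 libraries lay above the WT libraries. Rpl37a had 3.68 and 2.96 kb in IkE5 against 2.82 and 2.08 kb in WT, and Rpl34 had 2.80 and 3.10 kb in IkE5 against 2.55 and 2.06 kb in WT. On the other side, Rps19, which is mutated in human Diamond-Blackfan anaemia, had 4.76 and 4.71 kb in IkE5 and 7.10 and 6.95 kb in WT (-0.51 ± 0.24, limma adjusted p = 0.442). Rpl17 had 2.75 and 3.22 kb in IkE5 against 4.42 and 3.60 kb in WT, Rpl21 had 3.42 and 2.66 kb in IkE5 against 4.45 and 3.38 kb in WT, and Rps27 had 2.16 and 2.24 kb in IkE5 against 3.05 and 2.72 kb in WT. Of these 4, the unscaled lengths of the groups overlapped at Rpl21 alone. Unscaled lengths also carry differences between libraries, whose H3K27ac peaks covered 72.9 and 62.1 Mb in IkE5 and 79.6 and 54.6 Mb in WT. None of the 8 passed the adjusted threshold.

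**Figure D5:**
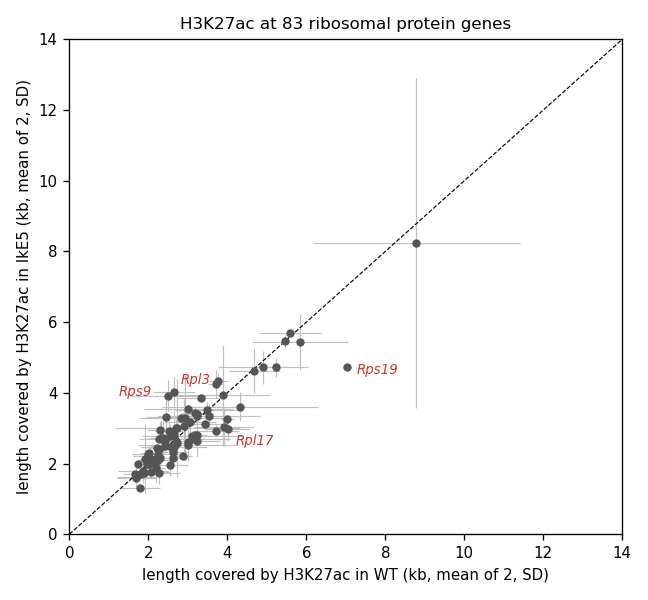
Length covered by H3K27ac in the gene body and 2 kb on each side, in IkE5 (y axis) against WT (x axis), in kb, for the 83 ribosomal protein genes in the fit. Lengths are not scaled to the library's total, whereas the limma fit used scaled lengths. Points are means of 2 libraries, bars are SD, and the dashed line marks equal values. Rps19 lies below the line (4.76 and 4.71 kb in IkE5, 7.10 and 6.95 kb in WT), and Rps9 and Rpl3 lie above it. None of the 83 passed an adjusted p of 0.05.

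At Rps19 (chr7:24884592-24889811) the H3K27ac regions found in WT alone lay downstream of the gene start. They were chr7:24887420-24888883 and chr7:24889206-24889965 near the gene's end, and Foxp3, p300 and Ikaros peaks were present at the gene in every library. Rpl34 had the one IkE5 only H3K27ac region (chr3:130727672-130728384), also in the gene body. In all, 1 gene had an IkE5 only region of H3K27ac (1.10%, against 5.85% of all genes and 9.22% of those with the mark in all 4 libraries). A WT only region was found at 1 gene (1.10%, against 6.9% and 11.1%). Longer windows can hold more regions, and no background matched for gene length was taken. Over promoter windows the count was 0 for both, against 0.583% (IkE5 only) and 0.44% (WT only) of all genes.

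For Foxp3, Rpl13a was the one gene with a WT only region (chr7:45128675-45129263), in a window shared with another gene. This is 1.10%, against 2.88% of all genes and 5.21% of those with H3K27ac in all 4 libraries. An IkE5 only Foxp3 region was found at 0 ribosomal protein genes, against 3.49% of all genes and 5.91% of those with H3K27ac in all 4. A Foxp3 region with a peak in all 4 libraries was present at 56 of the 91. For p300, 5 genes had an IkE5 only region (5.49%), against 3.12% of all genes and 5.61% of those with H3K27ac in all 4 libraries. A p300 WT only region was found at 3 genes (3.30%), against 3.92% and 7.22%. The IkE5 only regions were at Rpl22l1 (chr3:28805322-28806210), Rpl23a, Rpl26 (chr11:68901337-68901867), Rps15a and Rps20, and the WT only regions at Rpl7, Rpl23 (chr11:97782109-97782748) and Rpl32. At a required overlap of 250 bp the IkE5 only count was 2. p300 was present in all 4 libraries at 12 genes, among them Rps3, Rps19, Rpl3, Rpl4 and Rpsa. Leaving out 1 library moved the p300 counts to between 8 and 12 (IkE5 only) and between 5 and 16 (WT only), the Foxp3 counts to between 1 and 5 (IkE5 only) and between 2 and 10 (WT only), and the H3K27ac counts to between 1 and 7 (IkE5 only) and between 1 and 17 (WT only), with each of the 4 libraries moving at least 1 of them by over 1.5 times.

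In limma's fit, 0 of 78 mitochondrial ribosomal protein genes, 0 of 35 initiation factors and 0 of 15 elongation factors and ribosome-associated proteins passed for H3K27ac in either direction. Among 57 biogenesis genes Rrp1 was lower in IkE5, and among 21 genes of mTOR and Myc control Larp1, whose product binds messages with a pyrimidine start, was higher, each at an adjusted p under 0.05, where 1.88% of all genes passed. With no scaling to the library's total 0 genes passed, so neither call was made. As a check of the cells, all 7 Treg markers (Foxp3, Il2ra, Ctla4, Ikzf2, Tnfrsf18, Cd3e and Cd4) had H3K27ac in all 4 libraries, while Ms4a1, Csf1r, Lyz2, Klrb1c and Ncr1, markers of B, myeloid and NK cells, had none in any. The other 9 markers of B, myeloid, CD8 T and NK cells had the mark in at least 2 libraries, over at most 7.11 kb at Spi1. Some of these moved with the genotype. The marked length, not scaled to the library's total, was summed over the markers of each kind. Over the 5 B cell markers, 3 of which had the mark, it was 4.53 and 4.37 kb in IkE5 and 6.94 and 6.57 kb in WT. Over the 5 myeloid markers, 3 with the mark, it was 6.87 and 7.41 kb in IkE5 and 11.4 and 7.58 kb in WT. Over the 5 CD8 T and NK cell markers, 3 with the mark, it overlapped, at 3.20 and 2.38 kb in IkE5 and 3.03 and 2.84 kb in WT, although Cd8a had 0 kb in both IkE5 libraries and 0.50 and 1.30 kb in WT. The part of other cell types in the differences between genotypes was not tested. In bulk libraries, fewer cells of a type and less signal per cell cannot be told apart.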

How the data were processed

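The data were peak lists of 18 ChIP-seq libraries. Per the labels' protocols, cells were fixed with 1% formaldehyde for 5 min (H3K27ac) or 30 min (factors). The submitters' processing notes list Bowtie2, MACS2, HOMER, bedtools and FastQC, with mm10 as build. The peak caller, its threshold and its control are not stated there. The deposited lists, 1 per library, hold chromosome, start and end. Factor peaks were 500 bp wide with 1 exception in 4 of the lists, and H3K27ac peaks were 500 bp or wider. The 4 input samples are not analysed here.

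Genes and starts were those of RefSeq for GRCm38.p6. Peaks of a target were joined at an overlap of at least 1 bp. H3K27ac covered length was fitted in limma 3.58.1 under R 4.3.3 (trended prior, genotype alone), without a count model since the lists hold no reads. The script was tested on simulated data for this comparison, where 200 of 200 genes changed by 2 on the log2 scale were recovered and 17 of the other genes were called. The simulated noise was independent between libraries, and differences at ribosomal protein genes ran only from -0.51 to 0.50. The simulation thus does not show how often changes of that size would be found. Across 153 pairs of lists at most 0.745% of intervals were identical, and no list was counted as a copy. The genes and lists were chosen with earlier results of these data known. Genes named with values were the 4 largest differences in each direction, those with an IkE5 only or WT only region, those with peaks in the most or fewest lists, the stalk genes and Rpsa, and the paralogs; the genes with a WT only NFAT1 region, beyond the 8 the rule allows, Rrp1, Larp1 and the genes with the mark and no factor were named after their values were seen. Some genes are not reported here by name or shown. Python 3.11.15 was used for the rest.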

Additional observations from a re-analysis of the deposited data

How the results depend on the processing

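In every alternative 0 ribosomal protein genes passed limma's threshold for H3K27ac, with smallest adjusted p-values from 0.0709 (replicate block) to 0.828, and the median log2 difference ran from -0.10 to 0.07 when single libraries were left out. The number of all genes called was 214, with 133 of them higher in IkE5, and depended on the setting. It was 78 (53 higher) at a pseudocount of 100 bp, 107 (73 higher) with no filter, 128 (82 higher) for the gene body alone, 35 (28 higher) when scaled to the median, and 0 with no scaling. It was 961 with library number as a replicate block, with 480 higher and 481 lower. Without single libraries it was 214 to 646, with 248 higher and 254 lower without IkE5 library 2, so the excess of higher calls was absent in those 2 settings. Same-numbered libraries deviated together (r = 0.449 over 11362 genes, which are not independent), but the labels do not say that a number marks a shared preparation.

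Counts of ribosomal protein genes with a genotype-specific region moved as follows. With 10 kb on each side they were 4 of 91 (IkE5 only, against 7.59% of all genes) and 5 (WT only, against 8.96%) for H3K27ac. For Foxp3 the count was 5 (WT only, against 3.98%). Regions joined at 250 bp gave 2 for H3K27ac (IkE5 only, against 6.16% of all genes) and 2 for p300 (IkE5 only, against 3.03%). Over the 70 promoter windows, an alternative chosen after seeing the data, the counts were 0 and 0 for H3K27ac (0.583% and 0.44% of all genes). For p300 they were 2 (IkE5 only, against 0.926% of all and 1.68% of acetylated genes) and 1 (WT only, against 1.62% and 2.95%). For NFAT1 the count was 6 (WT only, against 2.80% and 5.16%). In windows with no other gene, also chosen after seeing the data, the WT only counts were 0 for Foxp3, 0 for p300 and 4 for NFAT1. Without single libraries, NFAT1 WT only counts were 11 to 22 (7.54% to 12.7% of all genes) and IkE5 only 0 to 0 (1.35% to 3.14%). Those of p300 were 8 to 12 (IkE5 only) and 5 to 16 (WT only), those of Foxp3 1 to 5 and 2 to 10, and those of H3K27ac 1 to 7 and 1 to 17. The shares of all genes given above moved with these counts. Genes with a peak in both lists became, with 1 list each, 34 to 44 (IkE5) and 37 to 50 (WT) for p300, and 2 to 4 (IkE5) and 21 to 26 (WT) for NFAT1; NFAT1 in IkE5 was 1 in the gene body alone and 5 with 10 kb. The cause of these moves was not tested. The lists carry no score, so no stricter threshold could be tried for the factors.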
